A study of Mus musculus with 12 samples.

Results

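The clustered protocadherins were examined in RNA sequencing of midbrain astrocytes from mice with and without Cd38, the gene of an enzyme that consumes NAD+. Members were the genes whose symbols place them in the alpha, beta or gamma protocadherin cluster, which gave 57 of the 20614 genes in the table: 14 alpha, 22 beta and 21 gamma. One of them, Pcdhgc4, was singled out because its value in Cd38+/- astrocytes was low, so its Cd38+/- values are given as a description without a test. The libraries came from male mice at 12 to 14 months of age, 3 of them Cd38+/+ (wildtype), 3 Cd38+/- (heterozygous) and 6 Cd38-/- (knockout). Astrocytes of all 3 genotypes were pulled down from dissected striatum, thalamus and substantia nigra with beads that bind the astrocyte surface antigen ACSA-2, after endothelial cells, myelin and microglia had been removed with other beads. The Cd38 mutation was not restricted to astrocytes, so every cell of the mutant animals carried it.

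Clustered protocadherins are cell adhesion molecules of the cadherin superfamily that sit in tandem arrays on one chromosome. In the alpha and gamma clusters each variable exon has its own promoter and encodes the outer part of 1 protein, and splicing joins it to shared constant exons that encode a common cytoplasmic tail. Beta genes consist of a variable exon alone. The proteins pair on one membrane and recognise the same combination on another membrane, and neurons use this code to tell their own branches from those of other cells. Most variable exons are switched on at random, whereas the C-type exons at the end of the alpha and gamma arrays (Pcdhac1, Pcdhac2, Pcdhgc3, Pcdhgc4 and Pcdhgc5) are controlled differently. In astrocytes, gamma protocadherins are known to act at contacts with neurons.

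In the mm10 genome the alpha cluster lies on chromosome 18 from 36930184 to 37187661, the beta cluster from 37264938 to 37524479 and the gamma cluster from 37661793 to 37841873, all on the plus strand (GENCODE vM21). Pcdhgc4 (ENSMUSG00000023036) spans 37815079 to 37841873, the last stretch being the constant exons it shares with the other gamma members. In that annotation 2860 exonic bases in 3 exons were common to alpha members and 2119 bases in 3 exons to gamma members. The median coding transcript shared 53.4% of its bases with other members in the alpha cluster, 45.0% in the gamma cluster and 0% in the beta cluster. Reads from constant exons can belong to any member of their cluster, and the program used by the authors (RSEM) divided them among members by estimation, so a cluster sum depends less on that division than a single alpha or gamma member does. The annotated coding transcripts of Pcdhgc4 include a short one in which only 153 of 2272 bases were its own, the highest shared portion (93.3%) of any member transcript. The table gives 1 value per gene, so transcripts of Pcdhgc4 could not be told apart.

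Expression is given in TPM, a level per gene that is scaled for transcript length and for library size and so can be compared between genes. How many reads lie behind a TPM value is unknown, so counting error could not be given, and a gene listed at 0 may still have been expressed. The Cd38+/+ libraries stood apart from the rest, with 13160 to 13516 genes having a TPM above 0 against 15920 to 17906 in the 9 other libraries. Cd38 itself measured 104.9 to 148.6 TPM in Cd38+/+, 90.4 to 90.8 TPM in Cd38+/- and 8.54 to 21.9 TPM in Cd38-/- libraries, without overlap between genotypes. All 12 astrocyte markers reached 1 TPM in every library and their summed level was 12312 to 18165 TPM in Cd38+/+, 17828 to 20246 TPM in Cd38+/- and 13737 to 17695 TPM in Cd38-/- libraries. Of 15 neuronal markers, 4 reached 1 TPM in every library, and the summed levels overlapped (68.7 to 84.5, 46.1 to 79.8 and 57.4 to 146.8 TPM). Single neuronal markers went both ways. Th, Slc6a3 and Drd2 were listed at 0 in all Cd38+/+ libraries, whereas Rbfox3 averaged 5.84, 1.42 and 0.91 TPM, Stmn2 14.8, 7.82 and 8.74 TPM and Tubb3 10.65, 7.18 and 7.45 TPM in Cd38+/+, Cd38+/- and Cd38-/- libraries, with overlap. Over the 7 neuronal markers tested, the median log2 difference from Cd38+/+ was -0.63 in Cd38+/- and -0.31 in Cd38-/-. Choroid plexus markers differed most between libraries, at a summed 132.8 to 324.9, 258.7 to 7397 and 283.4 to 2052 TPM, and Kl and Aqp1 were listed at 0 in all Cd38+/+ libraries. Ependymal markers summed to 1917 to 3569, 1948 to 2411 and 2568 to 3875 TPM. Oligodendrocyte markers summed to 1297 to 7188, 3090 to 11025 and 3174 to 17802 TPM. Microglial markers summed to 107 to 125, 133 to 164 and 117 to 171 TPM, higher in Cd38+/- than in Cd38+/+ without overlap. Endothelial markers summed to 433 to 2004, 360 to 733 and 393 to 1310 TPM, with overlap. The summed markers of oligodendrocyte precursors and of mural cells and fibroblasts overlapped between the genotypes. The part of these other cells in the results below was not tested, and in such pooled RNA fewer cells of a type and less RNA per cell cannot be told apart.

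Midbrain astrocytes expressed mainly gamma protocadherins. The gamma cluster summed to 396.9, 426.0 and 406.9 TPM in the Cd38+/+ libraries, which was 76.7 to 79.3% of all clustered protocadherin TPM. Beta members together measured 97.4, 126.7 and 95.8 TPM in the same libraries and alpha members 6.24, 2.56 and 19.2 TPM. The order gamma, beta, alpha held in each of the 12 libraries.

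**Figure D1:**
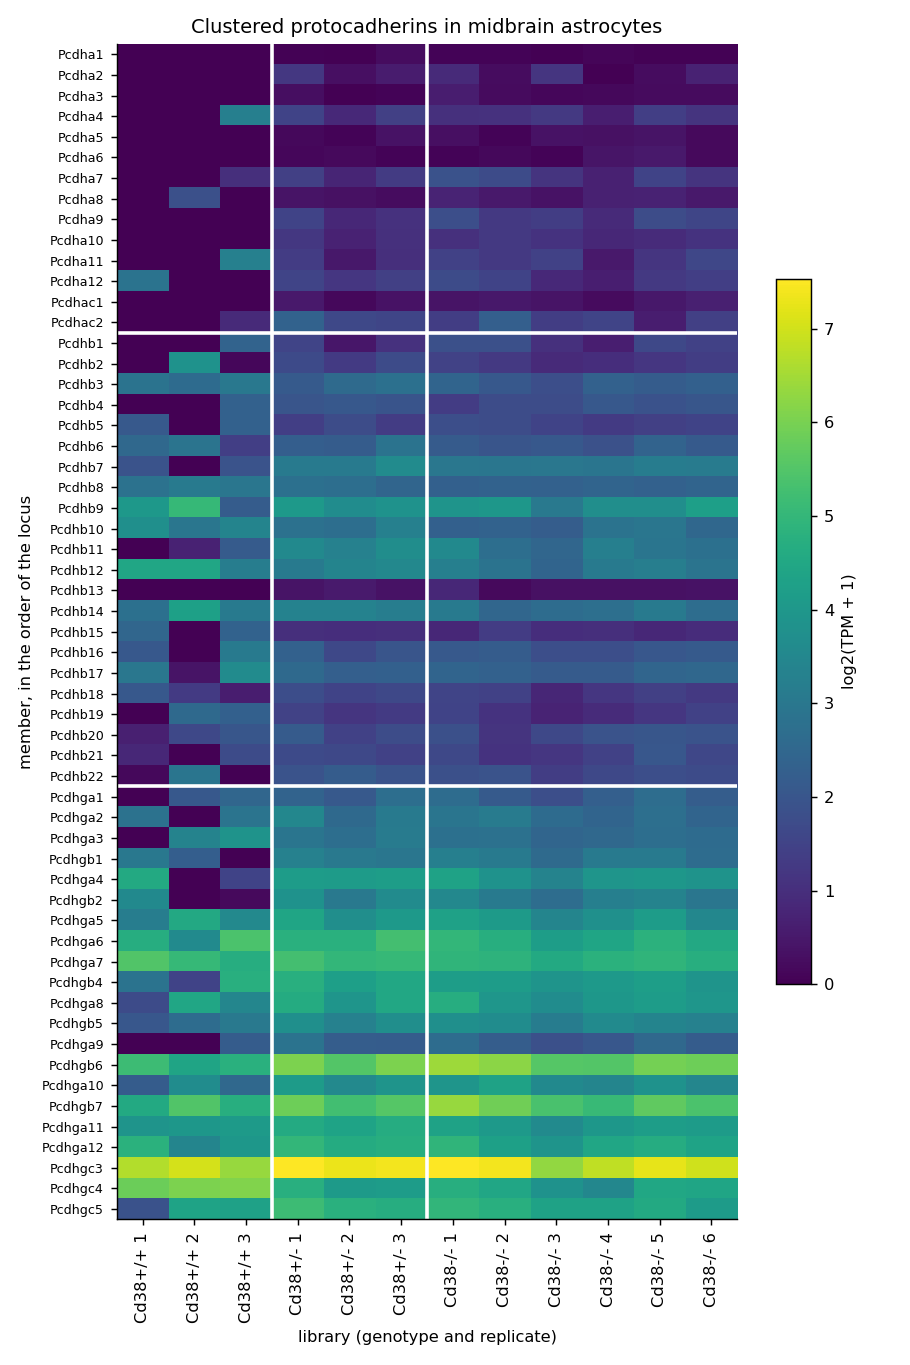
Level of each of the 57 members (rows, in the order of the locus, with white lines between the alpha, beta and gamma clusters) in each of the 12 libraries (columns, grouped by genotype), as log2(TPM + 1). Pcdhgc3 was the brightest row in all libraries, alpha rows were dark, and the Cd38+/+ columns differed more from each other than the other columns did.

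The highest level in the family belonged to a gamma C-type member. Pcdhgc3, whose tail-bearing protein is known to restrain Wnt signalling through Axin1, was the top gamma member in all 12 libraries. It measured 100.4, 130.3 and 81.9 TPM in Cd38+/+ libraries. In Cd38+/- libraries it measured 183.9, 156.4 and 166.6 TPM, and in Cd38-/- libraries 78.5 TPM at the lowest, 138.2 TPM at the median and 181.9 TPM at the highest. Its share of the gamma sum was 20.1 to 30.6%, 28.2 to 31.6% and 22.4 to 29.6% in the 3 genotypes, with overlap. Pcdhgc5, a C-type member described mainly in neurons, measured 2.71, 19.8 and 19.0 TPM in Cd38+/+, 35.0, 26.2 and 25 TPM in Cd38+/- and 16.6 to 30.1 TPM in Cd38-/- libraries. The first Cd38+/+ library was far below all others for this gene.

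The alpha C-type members were low. Pcdhac1 stayed under 1 TPM in every library and was listed at 0 in all 3 Cd38+/+ libraries. Pcdhac2 was listed at 0, 0 and 0.85 TPM in Cd38+/+ libraries and measured 4.13, 2.12 and 1.96 TPM in Cd38+/- and 0.51 to 3.81 TPM in Cd38-/- libraries. It was the highest alpha member in all 3 Cd38+/- libraries.

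Among the other gamma members, the B class reached higher single levels than the A class. Pcdhgb6 averaged 51.9 TPM and Pcdhgb7 44.9 TPM over the 12 libraries, followed by Pcdhgb4 (16.3 TPM) and Pcdhgb5 (9.24 TPM). Pcdhgb7 measured 22.7, 44.0 and 25.4 TPM in Cd38+/+, 57.5, 36.9 and 46.0 TPM in Cd38+/- and 32.9 to 82.4 TPM in Cd38-/- libraries, which overlapped. The leading A members were Pcdhga7 (30.3 TPM), Pcdhga6 (26.0 TPM), Pcdhga12 (21.6 TPM) and Pcdhga11 (17.2 TPM). Pcdhga7 measured 43.6, 32 and 24.8 TPM in Cd38+/+, 37.8, 30.7 and 31.9 TPM in Cd38+/- and 22.9 to 29.5 TPM in Cd38-/- libraries. Pcdhga6 measured 24.9, 11.2 and 41.2 TPM in Cd38+/+, 26.3, 26.7 and 37.7 TPM in Cd38+/- and 17.1 to 31.0 TPM in Cd38-/- libraries. For both, the Cd38+/+ range covered or overlapped the ranges of the other genotypes. The ranges of Pcdhga12 overlapped too, at 27.3, 9.82 and 14.7 TPM in Cd38+/+, 30.5, 23.9 and 25.6 TPM in Cd38+/- and 14.0 to 29.4 TPM in Cd38-/- libraries. All 21 gamma members reached 1 TPM in every one of the 9 libraries that were not Cd38+/+, and 14 of 21 did so in all 12.

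Beta members were lower and more even. Pcdhb9 led with an average of 14.2 TPM, ahead of Pcdhb12 (9.92 TPM), Pcdhb14 (7.88 TPM) and Pcdhb10 (6.57 TPM), and the median beta member averaged 2.83 TPM. Pcdhb9 was the highest beta member in all 9 libraries that were not Cd38+/+, with 11.7 to 15.5 TPM in Cd38+/- and 7.33 to 18.2 TPM in Cd38-/-. The Cd38+/+ libraries did not share a leading beta member: it was Pcdhb12 at 20.9 TPM in the first, Pcdhb9 at 32.2 TPM in the second and Pcdhb17 at 11.3 TPM in the third. Pcdhb14 measured 5.84, 18.4 and 7.65 TPM in Cd38+/+, 9.15, 9.19 and 8.13 TPM in Cd38+/- and 4.63 to 7.66 TPM in Cd38-/- libraries. Pcdhb10 measured 12.4, 6.81 and 9.58 TPM in Cd38+/+, 6.08, 5.66 and 8.65 TPM in Cd38+/- and 3.69 to 6.84 TPM in Cd38-/- libraries. At the other end, Pcdhb13 stayed under 1 TPM in every library. Of the 22 beta members, 7 reached 1 TPM in all 12 libraries and 16 in all 9 libraries that were not Cd38+/+.

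Alpha members of the random class were near the floor. Pcdha11, Pcdha4, Pcdha12 and Pcdha7 had the highest averages, 1.68, 1.65, 1.64 and 1.23 TPM. Pcdha1, Pcdha3, Pcdha5 and Pcdha6 stayed under 1 TPM in every library. The whole alpha signal of the first Cd38+/+ library was in Pcdha12 (6.24 TPM) and that of the second in Pcdha8 (2.56 TPM), and the third held Pcdha11 (8.77 TPM), Pcdha4 (8.55 TPM), Pcdha7 (1.02 TPM) and Pcdhac2. Each library of the other genotypes listed 13 or 14 of the 14 alpha members above 0, none of them at 5 TPM. The alpha sum was nevertheless of like size, 7.61 to 16.9 TPM in Cd38+/- and 7.26 to 15.7 TPM in Cd38-/- libraries.

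The number of members detected depended on the level asked for. Above 0 TPM, 33 to 44 of the 57 members were detected in Cd38+/+ libraries and 56 or 57 in every other library. At 1 TPM or more, 32, 30 and 40 of the 57 members were detected in Cd38+/+ libraries, 50, 42 and 49 in Cd38+/- and 40 to 49 in Cd38-/- libraries, so that Cd38-/- met the Cd38+/+ range at 40. Over all 20614 genes the counts at 1 TPM were 12104 to 12557, 13373 to 13720 and 13349 to 13689, which separated the Cd38+/+ libraries from both other genotypes. At 5 TPM or more, the member counts of Cd38+/+ (22 to 24) and Cd38-/- (21 to 26) overlapped. In the Cd38+/+ genotype, 9 alpha and beta members were listed at 0 in each library (Pcdha1, Pcdha2, Pcdha3, Pcdha5, Pcdha6, Pcdha9, Pcdha10, Pcdhac1 and Pcdhb13). Of the 55 members above 0 in all 9 other libraries, 30 (54.5%) had a TPM of 0 in 1 or more of the Cd38+/+ libraries, beside 20.3% of the 14982 genes above 0 in those 9 libraries. A lower level puts a gene nearer to 0, and this count was not matched for level.

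Libraries of one genotype also differed in how alike their members were. Across the 57 members, the rank correlation between 2 libraries was 0.604 to 0.631 within Cd38+/+ (3 pairs), 0.974 to 0.985 within Cd38+/- (3 pairs) and 0.956 to 0.983 within Cd38-/- (15 pairs). Between a Cd38+/- and a Cd38-/- library it was 0.961 to 0.985 (18 pairs). These are correlations across genes that share a locus and, in part, exons, so they describe the libraries and carry no test. For the 28 members with a mean above 5 TPM in at least 1 genotype, the median SD of log2(TPM + 1) between libraries was 0.78 for Cd38+/+, 0.25 for Cd38+/- and 0.30 for Cd38-/-, beside 0.49, 0.20 and 0.23 for all 11845 such genes. An SD above 1 was seen in 12 of the 28 members (42.9%, beside 18.8% of all such genes) in Cd38+/+ libraries and in 0 members in the other genotypes. Pcdhga4 shows it best, with 22.6, 0.02 and 1.87 TPM in Cd38+/+ against 16.8, 16.6 and 17.4 TPM in Cd38+/- libraries (chosen after its values were seen).

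**Figure D2:**
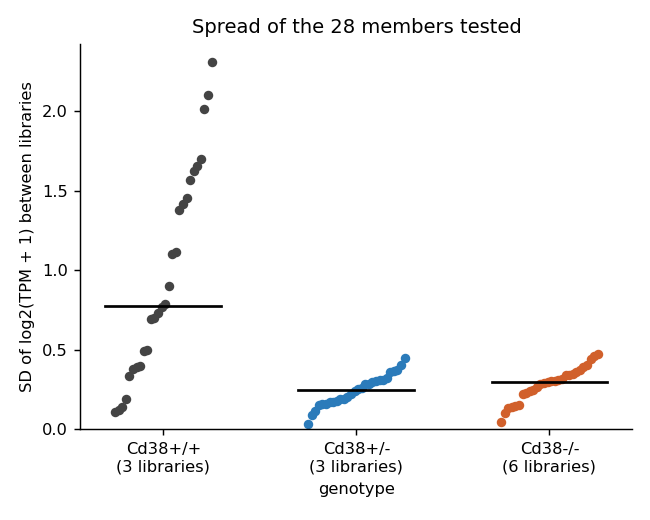
SD of log2(TPM + 1) between libraries of a genotype (vertical axis) for each of the 28 members tested (points, sorted within genotype), with the median as a line. The Cd38+/+ median of 0.78 lay above the medians of 0.25 (Cd38+/-) and 0.30 (Cd38-/-).

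Cluster sums were compared between genotypes by their values, without a test. The gamma sum was 651.3, 494.6 and 584.2 TPM in Cd38+/- libraries, all above the 3 Cd38+/+ libraries, with means of 576.7 ± 78.6 (SD, n = 3) and 410.0 ± 14.8 TPM (SD, n = 3). In Cd38-/- libraries it ran from 350.7 to 662.1 TPM (494.1 ± 113.1, SD, n = 6) and overlapped both. The gamma B class alone measured 84.8, 75.1 and 85.2 TPM in Cd38+/+, 183.6, 123.5 and 163.1 TPM in Cd38+/- and 117.8 to 215.7 TPM in Cd38-/- libraries, with no overlap between Cd38+/+ and either mutant genotype. The ratio of means was 1.92 for Cd38+/- and 1.87 for Cd38-/-.

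The beta sum was lower in Cd38-/- libraries. It was 92.1 to 106.9 TPM in Cd38+/- and 61.7 to 92.2 TPM in Cd38-/- libraries, the latter all below the lowest Cd38+/+ library at 95.8 TPM. Means were 106.6 ± 17.4 (SD, n = 3), 100.2 ± 7.54 (SD, n = 3) and 81.7 ± 11.2 TPM (SD, n = 6) in the 3 genotypes. As a share of all clustered protocadherin TPM, beta made up 18.4 to 22.8% in Cd38+/+, 13.2 to 15.5% in Cd38+/- and 12.0 to 16.1% in Cd38-/- libraries. The alpha sum overlapped between all 3 genotypes.

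**Figure D3:**
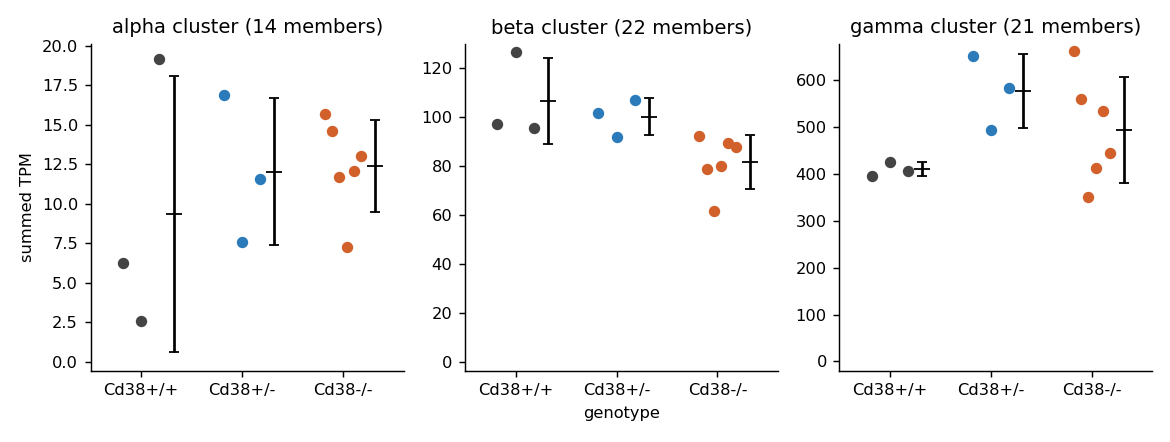
Summed TPM of the alpha, beta and gamma clusters (panels, each with its own vertical scale) in each library (points) by genotype, with the mean and SD as bars (n = 3, 3 and 6). The Cd38+/- gamma sums lay between 494.6 and 651.3 TPM, above the Cd38+/+ gamma sums of 396.9 to 426.0 TPM, and the Cd38-/- beta sums lay below all Cd38+/+ beta sums.

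Pcdhgc4, a C-type gamma member known to be needed for the survival of certain neurons, was lower in every mutant library than in any Cd38+/+ library. It measured 56.6, 65.4 and 68.2 TPM in Cd38+/+ libraries. In Cd38+/- libraries it measured 26.0, 16.3 and 16.9 TPM, and in Cd38-/- libraries 25.5, 21.1, 13.4, 10.1, 21.3 and 20.5 TPM. The lowest Cd38+/+ library was more than 30 TPM above the highest mutant library, and the 2 mutant genotypes overlapped. Of all genes tested, 6.94% were lower in Cd38+/- and 3.62% lower in Cd38-/- than in Cd38+/+ without overlap. As Pcdhgc4 was chosen for its low Cd38+/- value, this gap and the ratios below describe it and are no evidence. Means were 63.4 ± 6.06 (SD, n = 3), 19.7 ± 5.45 (SD, n = 3) and 18.6 ± 5.73 TPM (SD, n = 6), so the mutant means were 0.311 and 0.294 of the Cd38+/+ mean. Ratios of means nearly as low in both, 0.344 and 0.346, were found for Pcdhb15 (named after its values were seen), but at 4.59, 0 and 4.13 TPM in Cd38+/+ and 0.77 to 1.54 TPM in the other libraries, which overlapped. In a single mutant genotype, Pcdha8 (0.309) and Pcdha11 (0.336) in Cd38+/- and Pcdhb2 (0.296) in Cd38-/- also had low ratios. These were likewise named after their values were seen, and their libraries overlapped.

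Within its cluster Pcdhgc4 changed place. It ranked second of 21 gamma members, behind Pcdhgc3, in all 3 Cd38+/+ libraries. In the other libraries its rank was between 6 and 14. It made up 14.3, 15.4 and 16.8% of the gamma sum in Cd38+/+, 4.00, 3.29 and 2.90% in Cd38+/- and 2.45 to 4.62% in Cd38-/- libraries. The gamma sum without Pcdhgc4 was 338.7 to 360.6 TPM in Cd38+/+, 478.3 to 625.2 TPM in Cd38+/- and 337.3 to 636.6 TPM in Cd38-/- libraries. The SD of its log2(TPM + 1) among Cd38+/+ libraries was 0.14, below the 0.78 of the median member and the 1.42 of Pcdhgc5 beside it. Pcdhgc4 was chosen for its low Cd38+/- value, so its change of place and its small spread are not independent of that choice.

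**Figure D4:**
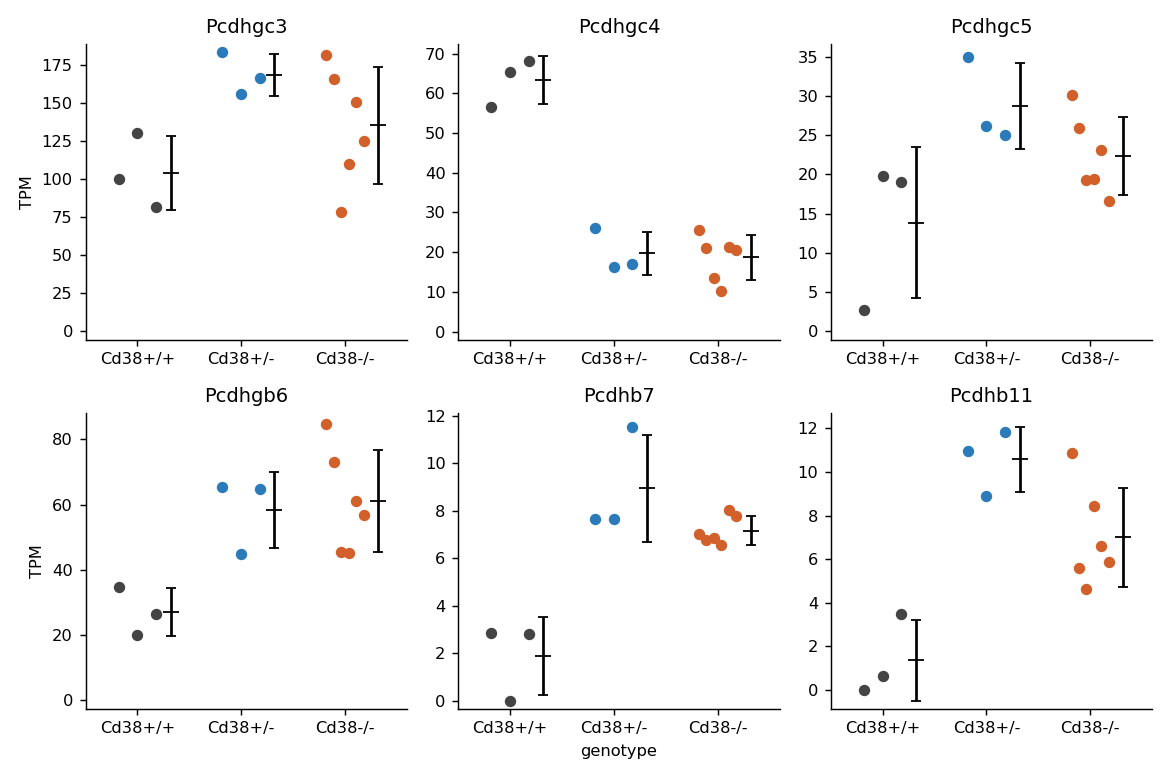
TPM (vertical axis, each panel with its own scale) of the 3 gamma C-type members and of Pcdhgb6, Pcdhb7 and Pcdhb11 in each library (points) by genotype, with the mean and SD as bars (n = 3, 3 and 6). Pcdhgc4 lay at 56.6 to 68.2 TPM in Cd38+/+ and at 10.1 to 26.0 TPM in the other libraries, while Pcdhgb6, Pcdhb7 and Pcdhb11 lay lowest in Cd38+/+ libraries.

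Differences between genotypes were tested with limma on log2(TPM + 1) across all genes whose mean TPM exceeded 5 in at least 1 of the 2 genotypes compared, and a gene was called at a Storey q under 0.05 with at least a 1.2-fold change. Log2 fold changes are on that scale and understate the change of low genes. Both comparisons with wildtype use the same 3 Cd38+/+ libraries, so they are not independent of each other. Of the 57 members, 28 were tested in each of these comparisons, 9 beta and 19 gamma. No alpha member passed the filter. Between the mutant genotypes 26 were tested.

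In Cd38-/- against Cd38+/+, 3 of the 28 members rose and 1 fell, beside 6.42% of 11722 genes called higher and 1.86% called lower. This balance depended on the filter and on the scaling. With at least 1 TPM required in every compared library, 1 of 21 members rose (Pcdhgb6) and 2 fell (Pcdhgc4 and Pcdhb12). Beside them 563 genes were higher and 212 lower. Without the filter 11 of 57 members rose and 1 fell, beside 1904 genes higher and 379 lower. With median-ratio scaling 3 members rose and 2 fell, beside 553 genes higher and 381 lower. After removal of the trend with transcript length and GC content 3 members rose and 6 fell (Pcdhgc4, Pcdhb3, Pcdhb8, Pcdhb10, Pcdhb12 and Pcdhga7), beside 429 genes higher and 967 lower. Without these changes, Pcdhgc4 fell by 1.77 on the log2 scale (SE 0.27, limma q = 0.0070). As Pcdhgc4 was chosen by a value that rests on the same Cd38+/+ libraries, this is not independent of its choice. Pcdhgb6 rose by 1.14 (SE 0.24, limma q = 0.019), from 34.6, 20.1 and 26.6 TPM in Cd38+/+ to between 45.1 and 84.8 TPM (median 59.0) in Cd38-/- libraries. Its Cd38+/- values were 65.4, 45.0 and 64.9 TPM, also above all Cd38+/+ libraries.

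The other called members were the beta genes Pcdhb11 and Pcdhb7. Pcdhb11 measured 0, 0.64 and 3.48 TPM in Cd38+/+ and 4.62 to 10.9 TPM in Cd38-/- libraries, a log2 change of 1.99 (SE 0.49, limma q = 0.029). Pcdhb7 measured 2.84, 0 and 2.80 TPM in Cd38+/+ and 6.57 to 8.04 TPM in Cd38-/- libraries, a log2 change of 1.74 (SE 0.45, limma q = 0.033). In Cd38+/- libraries Pcdhb11 was at 10.97, 8.92 and 11.8 TPM and Pcdhb7 at 7.64, 7.63 and 11.5 TPM, again above all Cd38+/+ libraries. Both passed the filter only through the mutant genotypes, as did Pcdhgb1, Pcdhgb2 and Pcdhga2, so they could enter the test only by being higher there.

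These calls depended on the libraries and the model. Under library quality weights 0 of the 28 members and 1 of the 11722 genes were called, and under a block on the replicate number 0 members and 2 genes. The limma q of Pcdhgc4 was then 0.247 and 0.318, the only 2 of 20 alternatives in which it was 0.05 or more (lowest q = 0.0011). Replicate numbers above 3 occur only in Cd38-/-, so the block in effect left those libraries out of the comparison. Pcdhgc4 was called lower whichever of the 9 libraries was left out, whereas leaving out Cd38-/- replicate 1, 2 or 5 left Pcdhgc4 as the single called member and leaving out replicate 6 left Pcdhgc4 and Pcdhgb6. All these fits rest on Cd38+/+ libraries by which Pcdhgc4 was chosen, so its steadiness is not independent of that choice. Leaving out a Cd38+/+ library raised the number of members called to 8, 10 and 8 of 29 for replicates 1, 2 and 3. The genes called rose as well, to 1328, 1394 and 2269 higher and 501, 537 and 850 lower. These were out of 11778, 11735 and 11779 genes tested, so the rise was not particular to the members.

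Without overlap between the libraries, 4 members were higher in Cd38-/- than in Cd38+/+ (Pcdhgb6, Pcdhb11, Pcdhb7 and Pcdhgb5) and 3 lower (Pcdhgc4, Pcdhb8 and Pcdhb3), beside 8.21% and 3.62% of all genes tested. Pcdhgb5 measured 3.12, 5.28 and 7.17 TPM in Cd38+/+ and 7.95 to 12.4 TPM in Cd38-/- libraries (log2 fold change 0.90, SE 0.31, limma q = 0.065). Pcdhb8 measured 6.11, 7.38 and 6.71 TPM against 3.95 to 4.34 TPM (log2 fold change -0.58, SE 0.31, limma q = 0.154). Pcdhb3 measured 6.37, 5.20 and 7.05 TPM against 2.5 to 4.42 TPM (log2 fold change -0.65, SE 0.34, limma q = 0.152). Pcdhb8 and Pcdhb3 passed the filter only through Cd38+/+, as did Pcdhb10 and Pcdhb17, so they could enter the test only by being higher there, and these counts are no support for a direction. Pcdhgb5, Pcdhb8 and Pcdhb3 did not pass the test, nor did Pcdhgc3 (log2 fold change 0.35, SE 0.25, limma q = 0.232) or Pcdhgc5 (0.99, SE 0.47, limma q = 0.129).

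Middle values are given as a description. Without the filter on low values, the median log2 fold change in Cd38-/- against Cd38+/+ was 0.80 over all 21 gamma members and 0.01 over all 22 beta members, beside 0.12 over 18906 genes. Over the members tested it was 0.80 for 19 gamma and -0.58 for 9 beta members, beside 0.15 over all genes tested. The filter shaped the beta value, since 4 of these 9 entered only through Cd38+/+ and 2 only through Cd38-/-. With median-ratio scaling, which moved the median of all genes to 0.03, the medians over the members tested were 0.72 and -0.68. Pcdhb12, which passed the filter in both genotypes, measured 20.9, 21.1 and 8.17 TPM in Cd38+/+, 7.47, 9.44 and 10.4 TPM in Cd38+/- and 4.38 to 8.53 TPM in Cd38-/- libraries, which overlapped.

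In Cd38+/- against Cd38+/+, Pcdhgc4 is left out of the counts of members because it was chosen on this contrast, and its log2 difference of -1.66 is a description. Of the other members tested 0 were called, and 0% of the 11763 genes tested were called higher and 0% lower by limma. The study did report differentially expressed genes in this comparison, so 0 calls describe this fit on log2(TPM + 1). An unadjusted p under 0.05 was reached by 5 of the members other than Pcdhgc4, all higher in Cd38+/- (Pcdhgb6, Pcdhgc3, Pcdhb11, Pcdhb7 and Pcdhgb2). Over all 11763 genes tested it was reached by 1586, of which 1117 were higher and 469 lower, so most leaned the same way. Without overlap, 7 members were higher in Cd38+/- (Pcdhb7, Pcdhb11, Pcdhgb5, Pcdhgb6, Pcdhga11, Pcdhgc3 and Pcdhgc5) and 1 lower (Pcdhb8), beside 15.5% and 6.94% of all genes tested. Pcdhb7, Pcdhb11 and Pcdhgb2 again passed the filter only through the mutant genotype. Pcdhga11 measured 13.8, 14.9 and 16.1 TPM in Cd38+/+ and 23.1, 19.7 and 24.5 TPM in Cd38+/- libraries. Without the filter the median difference was 1.02 over all 21 gamma members and 0.19 over all 22 beta members, beside 0.18 over all genes, and over the members tested it was 1.02 and -0.09.

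**Figure D5:**
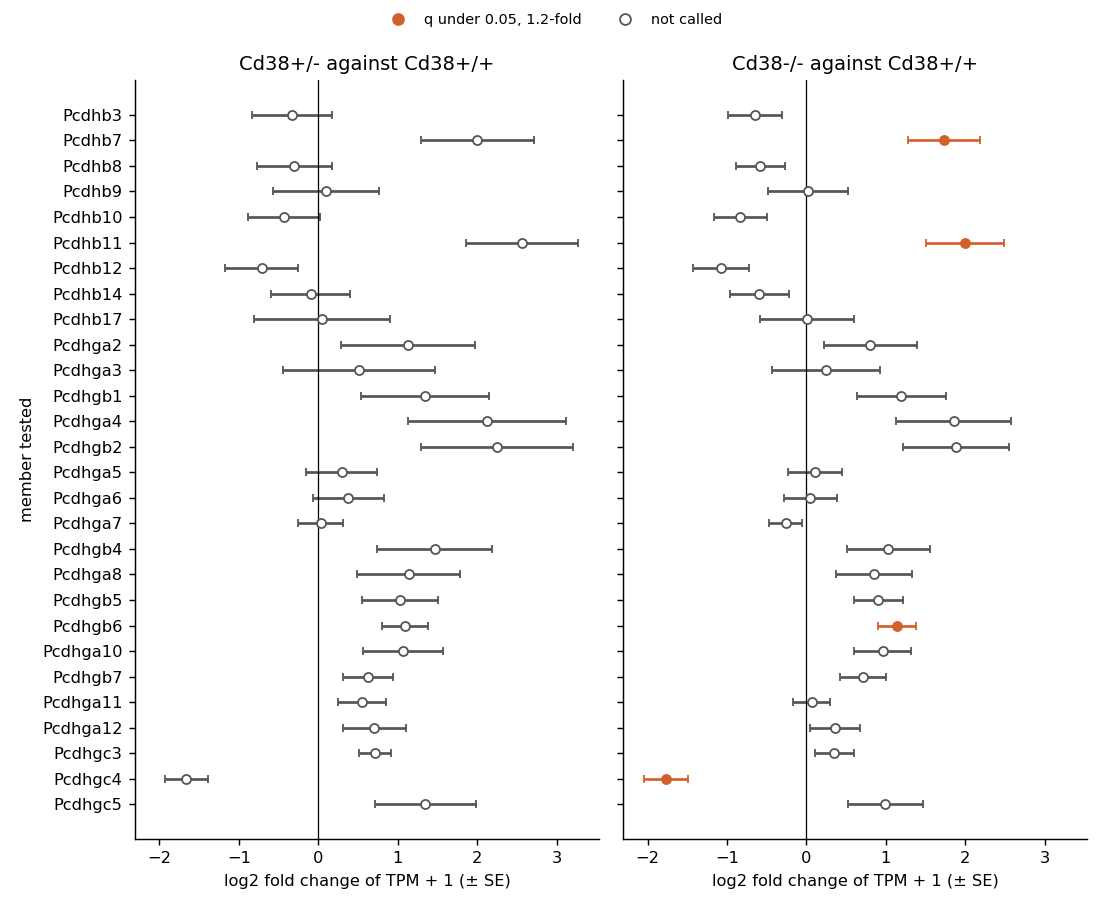
Log2 fold change of TPM + 1 with its SE (horizontal axis) for the 28 members tested (vertical axis, in the order of the locus) in Cd38+/- (left) and Cd38-/- (right) against the same 3 Cd38+/+ libraries, with called members filled. Pcdhgc4 lay at -1.66 and -1.77, apart from the other gamma members, and the called members were Pcdhgc4, Pcdhgb6, Pcdhb7 and Pcdhb11 in Cd38-/-.

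The mutant genotypes were also compared with each other, which does not involve the Cd38+/+ libraries. In Cd38-/- against Cd38+/-, 0 of 26 members were called by limma, beside 0.0173% of 11563 genes called higher and 0.0173% called lower. An unadjusted p under 0.05 was reached by 5 members, all lower in Cd38-/-. Over all genes tested it was reached by 721 higher and 578 lower. Values were below 0 for 24 of the 26 members, beside 6314 of the 11563 genes, with a median of -0.29 beside -0.02 over all genes. Of these members, Pcdhb8 and Pcdhb10 passed the filter only through Cd38+/-. Without the filter the median over all 57 members was -0.16. Markers of other cells moved in the same comparison. The summed ependymal markers were higher in Cd38-/- without overlap, at 2568 to 3875 against 1948 to 2411 TPM (ratio of means 1.60), and the summed astrocyte markers were lower without overlap (ratio of means 0.81). Their part in the values of the members was not tested. Pcdhb14, Pcdhb8, Pcdhga7, Pcdhga11 and Pcdhgb4 were lower in Cd38-/- without overlap and 0 members were higher, beside 2.88% and 2.85% of all genes tested. Pcdhgb4 measured 25.9, 18.2 and 21.8 TPM in Cd38+/- and 14.0 to 17.5 TPM in Cd38-/- libraries (log2 fold change -0.43, SE 0.14, limma q = 0.233). Pcdhga11 measured 11.2 to 19.1 TPM in Cd38-/- libraries (log2 fold change -0.49, SE 0.16, limma q = 0.233). Pcdhgc4 differed by -0.11 (SE 0.27, limma q = 0.663), and the sign of that value changed with the setting. With library quality weights, 16 of the 26 members were called, all lower in Cd38-/-. Under the same setting 3120 of the 11563 genes were called, 1644 higher and 1476 lower.

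Genes around the clustered protocadherins were read from lists of related genes. Of 12 non-clustered protocadherins, which are adhesion molecules encoded outside the clusters, 8 were tested in Cd38-/- against Cd38+/+ and 0 were called by limma (0 with an unadjusted p under 0.05). Of 18 genes for factors that act on the locus, such as CTCF, cohesin and DNA methyltransferases, 17 were tested and 1 was called, the maintenance methyltransferase Dnmt1, at 3.09, 5.14 and 0.57 TPM in Cd38+/+ and 7.10 to 16.5 TPM in Cd38-/- libraries, which passed the filter only through the mutant genotype (log2 fold change 1.92, SE 0.44, limma q = 0.023). Ctcf, whose protein loops the promoters to their enhancers, was at 54.0 to 107.3 TPM in Cd38+/+ and 46.4 to 73.9 TPM in Cd38-/- libraries.

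Of 25 genes for proteins that cleave clustered protocadherins or are listed as partners in their signalling, 23 were tested, 1 was called higher and 1 lower. Nckap1, a subunit of the WAVE complex that drives actin branching, rose by 0.56 (SE 0.17, limma q = 0.048). Psenen, a subunit of the gamma-secretase that cuts the proteins in the membrane, fell by 0.47 (SE 0.14, limma q = 0.043). Of 20 genes that neighbour the clusters, 16 were tested and Sra1 was the only one called, with a log2 fold change of -0.42 (SE 0.12, limma q = 0.043). With 6.42% of all genes called higher and 1.86% lower, counts of 1 gene or none in each direction do not set any of these lists apart, and the genes are named as single values. In Cd38+/- against Cd38+/+ and between the mutant genotypes 0 genes of these 4 lists were called by limma, and an unadjusted p under 0.05 was reached by 2, 1, 3 and 2 genes of the lists, in the order given, in the first comparison and by 3, 0, 1 and 1 in the second. Among markers of cell types, 4 of choroid plexus (Folr1, Clic6, Ttr and Kcnj13), 2 of astrocytes (Gfap and Aqp4) and 1 of microglia (P2ry12) were called higher in Cd38-/- against Cd38+/+, and 0 of the 7 neuronal markers (1 with an unadjusted p under 0.05) and 0 of the 6 ependymal markers tested (5 with an unadjusted p under 0.05) were called by limma.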

How the data were processed

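RNA of ACSA-2-positive midbrain astrocytes was depleted of ribosomal RNA, reverse transcribed with a kit for small amounts of RNA and sequenced as 12 libraries. The authors trimmed reads with Trim Galore (v 0.6.4), mapped them to mm10 with STAR (v 2.7.1a) and estimated expression with RSEM (v 1.2.28), and the submitters' processing notes also name DESeq2 (v 1.36.0). The deposited unit is TPM per gene and library, rounded, with no pooling, and the annotation used is not given in the sources used here. Depth is unknown.

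Genotypes came from the sample labels, which do not say whether libraries share a litter or preparation, so p-values measure the spread between these libraries. From the TPM values, each pair of genotypes was compared with limma 3.58.1 (eBayes with trend, R 4.3.3) on log2(TPM + 1) over genes with a mean above 5 TPM in at least 1 genotype, with Storey q-values (lambda 0.05 to 0.95). The threshold and filter follow the study's methods, which do not name the test. The study reported differentially expressed genes in both comparisons with Cd38+/+, and in Cd38-/- it counted more genes lower than higher. Counts of calls given here hold for limma on log2(TPM + 1) and need not match those of the study. statmod 1.5.0 served the library weights and matplotlib 3.10.9 the figures. The procedure was tried on simulated data with the same spread in both genotypes, which these libraries did not have. That trial therefore does not show how reliable the calls are here. Positions, exons, transcript length and GC content came from GENCODE vM21 (GRCm38), which held all 57 members. No sequence is printed here.

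The members and lists were chosen with earlier results of these data known. Named members are Pcdhgc4, the C-type members, the 4 with the highest mean TPM in each other class, those called in any comparison, those tested without overlap between Cd38+/+ and both other genotypes, and those under 1 TPM in every library. The settings varied were the pseudocount (0.1 or 5), the filter (none, or at least 1 TPM in every library compared), the adjustment (Benjamini-Hochberg), the scaling (median-ratio), library quality weights, a fit over all 12 libraries, a block on the replicate number and leaving out each library. Removal of the length and GC trend and eBayes without trend were chosen after seeing the data.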

Additional observations from a re-analysis of the deposited data

How the results depend on the processing

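In Cd38-/- against Cd38+/+, 970 genes and 4 members were called. The counts were 2283 and 12 without the filter, 326 and 2 with Benjamini-Hochberg adjustment, 1 and 0 with library quality weights, and 1822 and 9 with all 12 libraries in one fit, while 9 members were called after removal of the length and GC trend and 9 with eBayes without trend. Leaving out 1 library gave 74 to 3119 genes (74 without Cd38-/- replicate 2, 3119 without Cd38+/+ replicate 3) and 1 to 10 members. Of the called genes, 77.5% were higher, against 59.2% with median-ratio scaling and 30.7% after removal of the length and GC trend. In Cd38+/- against Cd38+/+, with 0 genes and 0 members called, the counts were 663 and 4 without the filter, 30 and 1 with weights, 1464 and 6 with all 12 libraries (3, 0 and 5 members apart from Pcdhgc4, which was chosen on this contrast, so that its calls there are no evidence), and 9 genes with eBayes without trend, and leaving out 1 library gave 0 to 10 genes. Between the mutant genotypes, with 4 genes and 0 members, they were 3120 and 16 with weights, 1 gene with median-ratio scaling, 1 with all 12 libraries, 2 after removal of the trend and 0 to 93 genes without 1 library. The causes were not tested.

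Libraries with equal replicate numbers had correlations of deviations from -0.0943 to 0.0438 in the comparisons with Cd38+/+ and from -0.327 to 0.462 between the mutants. For unequal numbers these ran from -0.146 to 0.173 and from -0.55 to 0.531. Equal numbers thus did not stand out, but with so few pairs and no litter or preparation in the labels, a pairing cannot be settled. With the number as a block, 4, 2 and 2 genes and 0 members were called in the 3 comparisons. In the 2 comparisons with Cd38-/-, its libraries numbered above 3 had no partner and in effect dropped out.

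Pcdhgc4 and Pcdhgb6 were not called between the mutant genotypes (log2 fold change -0.11 and 0.04), and the sign varied. Pcdhgc4 was at 0.11 with weights, 0.0037 with the block, 0.014 after removal of the trend and -0.22 to 0.10 without 1 library. Pcdhgb6 was at -0.13 with weights and -0.13 to 0.14 without 1 library.

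The Cd38+/+ gamma sum was 429.1 TPM with median-ratio scaling. Members detected at 5 TPM averaged 23.3, 27 and 23.7 per library in Cd38+/+, Cd38+/- and Cd38-/-, against 34, 47 and 46 at 1 TPM, and 50.3 at 0.5 TPM in Cd38-/-. Depth limits all values near 0 to an unknown degree.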
